A study of Homo sapiens with 24 samples.

Results

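The 7 genes described here encode enzymes that remove or write methyl marks on nucleic acids: the 5-methylcytosine dioxygenases TET1, TET2 and TET3, the RNA demethylases ALKBH5 and FTO, and the RNA methyltransferase subunits METTL3 and METTL14. They were chosen by symbol, with no measured value in the rule, although earlier results of these data were known. All 7 of the 7 symbols were found among the 23106 rows of the count tables. The tables hold polyA RNA-seq of 4 human cancer cell lines, each as 3 libraries after 16 h in 0.5% oxygen (hypoxia) and 3 libraries in 21% oxygen (normoxia), 24 libraries in all. A549 is a lung line and PC3 a prostate line, both grown in F12K medium. HCT-116 is a colorectal line grown in McCoy's 5a medium, and T47D a breast line grown in DMEM, so that cell line and medium cannot be told apart in comparisons between lines, other than A549 against PC3. No genetic change or drug was applied in these samples. The labels do not say that replicates were separate cultures, so p-values measure the spread between these libraries, which may be technical.

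TET enzymes oxidise 5-methylcytosine in DNA to 5-hydroxymethylcytosine and further forms, which thymine DNA glycosylase and base excision repair can replace by unmodified cytosine. ALKBH5 and FTO remove N6-methyladenosine (m6A), the most abundant internal modification of messenger RNA, which the METTL3 and METTL14 heterodimer writes. METTL3 carries the catalytic site and METTL14 holds the RNA substrate. The TET proteins, ALKBH5 and FTO all belong to the iron and 2-oxoglutarate dependent dioxygenases and consume molecular oxygen, and METTL3 and METTL14 use S-adenosylmethionine instead. Hypoxia-inducible factor (HIF), the transcription factor stabilised at low oxygen, binds DNA at the core letters ACGTG or GCGTG.

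Library totals ran from 22698584 to 62850747 counts, and each of the 168 member values rested on 41 to 13239 counts. In the hypoxia check, 8 of 8 control genes were called up in A549, HCT-116 and T47D and 7 of 8 in PC3. CA9, a carbonic anhydrase, and EGLN3, a HIF prolyl hydroxylase, were called up in every line. The 5 luminal markers of T47D summed to 1694 to 2488 CPM there (counts scaled to library size), although one of them, TFF1, was lower in T47D (0.802 to 7.31 CPM) than in PC3 (16.0 to 31.9 CPM). HOXB13 was present in PC3, whose KLK3 and FOLH1 counts were 0. The 5 lung markers of A549 summed to at most 0.678 CPM in A549 and to 1.74 to 3.69 CPM in HCT-116. Of the colorectal markers, CDX2 was highest in HCT-116 (9.04 to 21.9 CPM), whereas CDH17 stood at 8.04 to 17.9 CPM in A549 and at most 0.118 CPM in HCT-116. Libraries of a group also differed in their long transcripts, among which hypoxic replicate 3 of T47D stood apart most. In normoxic HCT-116, transcripts of 9000 bases or longer lay 0.06 above other transcripts in replicate 1 on the log2 scale relative to the line mean. They lay 0.35 and 0.21 below in replicates 2 and 3. In T47D the spread concerned hypoxic replicate 3. Its transcripts of 9000 bases or longer lay 0.43 below other transcripts on the log2 scale relative to the T47D mean, whereas those of hypoxic replicates 1 and 2 lay 0.25 and 0.32 above.

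On GRCh37 (GENCODE 44), ALKBH5 lies at chr17:18087142-18113268, FTO at chr16:53738068-54155853, METTL3 on the minus strand at chr14:21966282-21979482 and METTL14 at chr4:119606547-119636585. TET1 lies at chr10:70320094-70454244, TET2 at chr4:106068033-106200960 and TET3 at chr2:74212037-74335303. Transcript length separates the members: FTO (11573 bases), TET3 (12060), TET1 (9612) and TET2 (9589) are longer than at least 96.2% of annotated genes, METTL14 measures 6642, ALKBH5 3159 and METTL3 1980 bases. Exons of METTL3 share 232 bases with TOX4 on the opposite strand. The strand setting of the counting is not stated, so reads there may not be told apart, and TOX4 itself was not called in any line (log2 fold change -0.03 in A549, 0.27 in HCT-116, 0.02 in PC3 and 0.23 in T47D).

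The 250 bases before the annotated start of each gene were read from GRCh37, and for all 7 members they matched the RefSeq promoter table. The windows of ALKBH5, TET3, METTL3 and TET1 are shown because these genes pair many, few or no HIF core letters with different behaviour in hypoxia. Capitals mark each ACGTG or GCGTG on either strand, and all windows run in the direction of the gene.
ALKBH5 (chr17:18086892-18087141, plus strand): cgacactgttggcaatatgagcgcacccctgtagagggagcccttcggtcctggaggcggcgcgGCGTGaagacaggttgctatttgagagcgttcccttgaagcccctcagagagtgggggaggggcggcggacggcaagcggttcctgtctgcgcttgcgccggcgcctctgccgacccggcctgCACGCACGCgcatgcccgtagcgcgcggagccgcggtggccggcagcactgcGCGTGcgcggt
TET3 (chr2:74211787-74212036, plus strand): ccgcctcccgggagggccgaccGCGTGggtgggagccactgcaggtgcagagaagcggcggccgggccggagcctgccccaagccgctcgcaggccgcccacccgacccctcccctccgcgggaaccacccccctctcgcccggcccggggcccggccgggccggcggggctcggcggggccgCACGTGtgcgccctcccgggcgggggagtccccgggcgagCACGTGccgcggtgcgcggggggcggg
METTL3 (chr14:21979483-21979732, minus strand): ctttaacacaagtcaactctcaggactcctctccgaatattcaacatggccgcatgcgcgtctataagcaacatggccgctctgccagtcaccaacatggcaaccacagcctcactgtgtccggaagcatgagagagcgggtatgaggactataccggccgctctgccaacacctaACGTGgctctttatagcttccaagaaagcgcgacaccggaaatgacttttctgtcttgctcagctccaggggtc
TET1 (chr10:70319844-70320093, plus strand): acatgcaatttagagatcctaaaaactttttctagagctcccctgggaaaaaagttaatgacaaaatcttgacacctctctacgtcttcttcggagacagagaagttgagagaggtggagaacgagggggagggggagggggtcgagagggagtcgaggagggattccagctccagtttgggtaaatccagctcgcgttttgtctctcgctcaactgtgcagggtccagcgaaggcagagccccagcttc
The ALKBH5 window holds 4 matches, at 186, 63, 59 and 11 bases before the start, of which the pair at 63 and 59 overlaps by its outer letter. TET3 holds 5 matches, 4 of which come from CACGTG at 2 places, a palindrome counted on both strands. METTL3 and TET2 hold 1 match each, and TET1, FTO and METTL14 none. Among 21647 promoter windows of this length, 49.4% held at least 1 match, 3.96% held 4 or more and 1.63% held 5 or more. The count of CG dinucleotides was 37 in TET3, 34 in TET2, 32 in ALKBH5, 17 in FTO, 13 in METTL3, 11 in METTL14 and 9 in TET1, against a median of 17 over all windows. A match is a description of the letters and not a binding site.

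**Figure D1:**
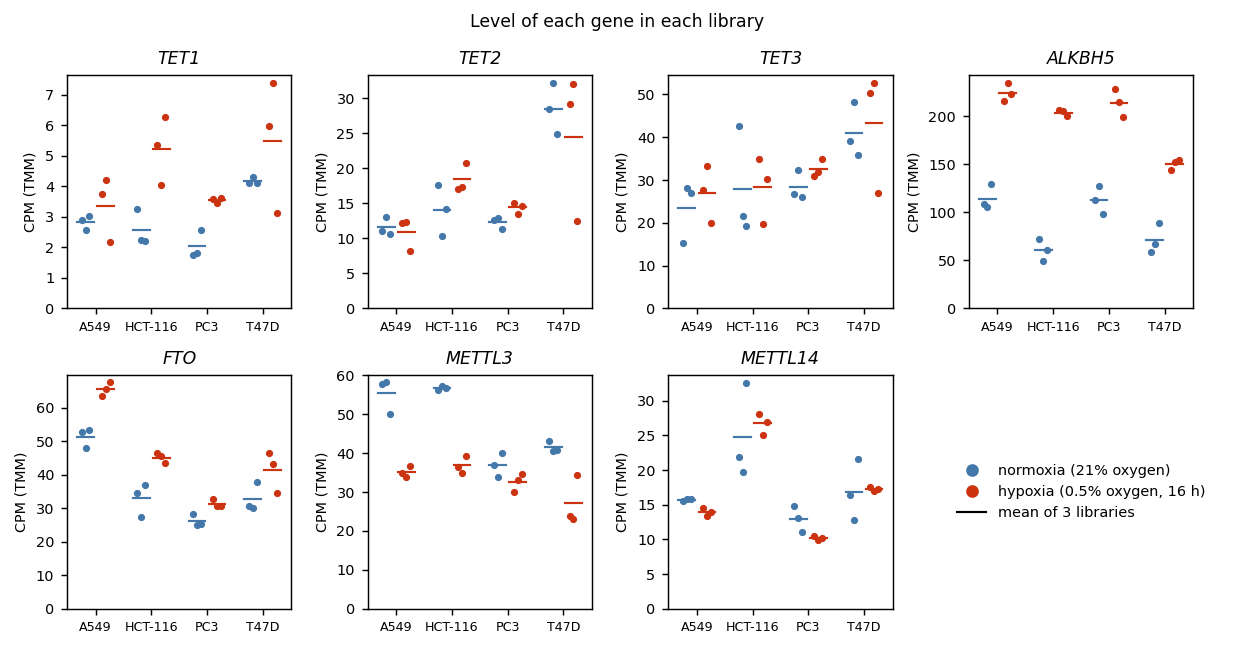
Level of each of the 7 genes in each of the 24 libraries, in CPM after TMM scaling within a line, with normoxia in blue, hypoxia in red and a bar at the mean of 3 libraries. ALKBH5 libraries do not overlap between oxygen levels in any line, and hypoxic replicate 3 of T47D is the lowest of its group for TET1, TET2 and TET3.

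Hypoxia was compared with normoxia within each line by edgeR's quasi-likelihood test, and a gene was called at an adjusted p below 0.05 (Benjamini-Hochberg over all genes tested) and a fold change above 1.2. Of the 28 combinations of member and line, 9 were called, 7 up and 2 down. In A549, 3 of 7 members were called, against 35.5% of all genes tested. HCT-116 also gave 3 of 7, against 50.3%. PC3 gave 2 of 7, against 32.3%, and T47D 1 of 7, against 13.2%. Of all genes, 6.55% were called up and 6.69% down in T47D. These shares lie near those of all genes, so that the members as a group did not stand out by how many were called. By direction, ALKBH5 was up in 4 lines, TET1 in 2 lines and FTO in 1 line, and METTL3 was down in 2 lines. TET2, TET3 and METTL14 were not called in any line. These fits held oxygen state only. With replicate number as a block, METTL3 was also called down in T47D and FTO up in HCT-116. T47D then had 2 members and 2766 genes called.

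ALKBH5 showed the largest change of the members in each line. In A549 its level was 108, 105 and 129 CPM in the normoxic libraries and 215, 234 and 223 CPM in the hypoxic libraries. HCT-116 started lower, at 72.7, 49.6 and 60.8 CPM, and reached 206, 205 and 199.7 CPM. These 2 lines thus lay closer together in hypoxia than in normoxia. In PC3 the values were 113, 127 and 98.7 CPM in normoxia and 228, 214 and 199 CPM in hypoxia. T47D had 58.5, 66.6 and 89.0 CPM in normoxia and 143, 153 and 154 CPM in hypoxia. Every hypoxic library was above every normoxic library of its line. In bulk libraries a change in all cells and a change in some cells cannot be told apart. ALKBH5 rose 1.96-fold in A549 (log2 fold change 0.97 ± 0.11, SE; adjusted p = 0.000112), 3.34-fold in HCT-116 (1.74 ± 0.20; adjusted p = 9.24e-05), 1.89-fold in PC3 (0.92 ± 0.11; adjusted p = 0.00116) and 2.10-fold in T47D (1.07 ± 0.21; adjusted p = 0.00769). Its absolute log2 fold change exceeded that of 91.5%, 91.8%, 93.6% and 89.1% of the genes tested in A549, HCT-116, PC3 and T47D. The T47D call did not pass without normoxic replicate 1 (log2 fold change 0.95, adjusted p = 0.0862) or normoxic replicate 2 (1.03, adjusted p = 0.0553).

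FTO, the other m6A demethylase, moved much less. Its level in A549 was 52.7, 48.0 and 53.2 CPM in normoxia and 63.4, 65.6 and 67.6 CPM in hypoxia, with no overlap. FTO rose there 1.28-fold (log2 fold change 0.35 ± 0.10, SE; adjusted p = 0.0179). In HCT-116 the values were 34.4, 27.4 and 36.8 CPM against 43.5 to 46.3 CPM in hypoxia (0.46 ± 0.18; adjusted p = 0.0536), and in PC3 25.0 to 28.2 CPM against 30.5 to 32.7 CPM (0.26 ± 0.10; adjusted p = 0.0622). Both pairs of groups were separate, but the test did not pass. T47D gave 30.8, 30.0 and 37.7 CPM in normoxia and 46.4, 43.3 and 34.5 CPM in hypoxia, which overlap through hypoxic replicate 3 (0.33 ± 0.20; adjusted p = 0.275). The A549 call was lost under 8 of 15 alternatives. Among them were the fits without hypoxic replicate 2 (adjusted p = 0.0665), normoxic replicate 1 (0.0534) or normoxic replicate 2 (0.0947). It was also lost in one fit of all 24 libraries (0.36, adjusted p = 0.0966), with total-count scaling (0.0666) and at an adjusted p below 0.01. The correction for GC content and length described further on, with or without the replicate block, removed it too. In HCT-116 FTO was called up under 7 of 15 alternatives. It passed by DESeq2 (0.50, adjusted p = 0.0341), with RLE scaling (0.0389), with no filter on low counts (0.0378), in one fit of all 24 libraries (0.57, adjusted p = 0.00236), with the replicate block (0.0363) and without normoxic replicate 1 (0.54, adjusted p = 0.0452) or normoxic replicate 3 (0.61, adjusted p = 0.0320).

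Among the m6A writers, METTL3, the catalytic subunit, was lower in hypoxia in A549 and HCT-116. A549 had 57.7, 58.4 and 50.2 CPM in normoxia and 34.8, 34.0 and 36.6 CPM in hypoxia, and METTL3 fell by 0.66 ± 0.11 (SE) on the log2 scale (adjusted p = 0.000887). HCT-116 had 56.3, 57.3 and 56.7 CPM in normoxia and 36.5, 35.0 and 39.2 CPM in hypoxia, and METTL3 fell by 0.62 ± 0.17 (adjusted p = 0.00939). The groups did not overlap in either line, and the HCT-116 call did not pass without hypoxic replicate 3 (-0.60, adjusted p = 0.0675). PC3 gave 37, 33.9 and 40.1 CPM in normoxia and 30.0, 33.1 and 34.8 CPM in hypoxia, which overlap (-0.18 ± 0.10, 95% interval -0.41 to 0.05; adjusted p = 0.198).

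In T47D, METTL3 was at 43.2, 40.7 and 40.7 CPM in normoxia and at 24, 23 and 34.4 CPM in hypoxia. The groups were separate, hypoxic replicate 3 was nearest to the normoxic libraries, and the log2 fold change of -0.61 ± 0.21 (SE) had an adjusted p of 0.0653. Same-numbered T47D libraries deviated together, and once the replicate number entered as a block METTL3 passed in T47D (-0.64, adjusted p = 0.0400). It also passed without hypoxic replicate 3 (-0.81, adjusted p = 0.00755).

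METTL14, the partner of METTL3, was not called in any line. In A549 its normoxic libraries lay between 15.6 and 15.8 CPM and its hypoxic libraries between 13.4 and 14.6 CPM (log2 fold change -0.17 ± 0.12, SE; adjusted p = 0.283). The values in HCT-116 were 21.9, 19.7 and 32.6 CPM against 25.1 to 28.1 CPM (0.11 ± 0.21; adjusted p = 0.687). PC3 had 14.8, 13.0 and 11.1 CPM in normoxia and 10.4, 9.88 and 10.2 CPM in hypoxia, with no overlap (-0.35 ± 0.14; adjusted p = 0.0720), a difference that passed without normoxic replicate 3 (-0.45, adjusted p = 0.0231). T47D had 16.3, 12.8 and 21.6 CPM in normoxia and 17.1 to 17.6 CPM in hypoxia (0.04 ± 0.22; adjusted p = 0.928). Normoxic libraries of HCT-116 and T47D were spread far wider than their hypoxic libraries for this gene.

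TET1 was the least abundant member, with 41 to 455 counts per library, so that its values carried the largest relative counting error. In HCT-116 it stood at 3.28, 2.25 and 2.21 CPM in normoxia and 5.36, 4.03 and 6.29 CPM in hypoxia, without overlap. It rose 2.02-fold there (log2 fold change 1.01 ± 0.29, SE; adjusted p = 0.0112). In PC3 the normoxic values were 1.76, 1.83 and 2.57 CPM and the hypoxic values 3.59, 3.44 and 3.61 CPM, again separate. TET1 rose 1.73-fold in PC3 (0.79 ± 0.21; adjusted p = 0.0198). The PC3 call did not pass when hypoxic replicate 1, 2 or 3 or normoxic replicate 1 was left out (adjusted p 0.0550, 0.0612, 0.0561 and 0.0666). A549 showed 2.90, 2.56 and 3.03 CPM against 3.74, 4.20 and 2.18 CPM (0.25 ± 0.26; adjusted p = 0.464). T47D showed 4.12, 4.32 and 4.11 CPM against 5.97, 7.39 and 3.13 CPM (0.39 ± 0.32; adjusted p = 0.424). In these lines hypoxic replicate 3 lay below all normoxic libraries and replicates 1 and 2 above them.

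TET2 did not pass in any line. Its log2 fold change was -0.09 ± 0.17 (SE) in A549 (adjusted p = 0.729), 0.39 ± 0.22 in HCT-116 (0.167), 0.23 ± 0.12 in PC3 (0.153) and -0.22 ± 0.29 in T47D (0.652). Only the PC3 groups were separate, at 11.4 to 12.9 CPM in normoxia and 13.5 to 15.1 CPM in hypoxia. In T47D, where TET2 was most abundant, normoxia gave 28.4, 32.1 and 24.9 CPM and hypoxia 29.1, 32.0 and 12.4 CPM. The low value is again hypoxic replicate 3, and without it the T47D log2 fold change was 0.11 instead of -0.22. In HCT-116 the normoxic values spread from 10.4 to 17.6 CPM and the hypoxic values from 17.1 to 20.8 CPM, and leaving out normoxic replicate 1 brought TET2 past the threshold (0.63, adjusted p = 0.0406).

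TET3 was not called in any line either, and its groups overlapped in every line. The normoxic values were 15.3, 28.0 and 27.0 CPM in A549, 42.6, 21.6 and 19.3 CPM in HCT-116, 26.7, 32.3 and 26.1 CPM in PC3 and 39.1, 48.2 and 35.9 CPM in T47D. In hypoxia the values were 27.7, 33.2 and 19.9 CPM in A549, 35.0, 19.8 and 30.4 CPM in HCT-116, 31.0, 31.9 and 34.8 CPM in PC3 and 50.3, 52.8 and 26.9 CPM in T47D. In HCT-116, normoxic replicate 1 lay above all hypoxic libraries and normoxic replicates 2 and 3 below hypoxic replicates 1 and 3. Its 95% intervals for the log2 fold change ran from -0.28 to 0.68 in A549, -0.61 to 0.66 in HCT-116, -0.05 to 0.44 in PC3 and -0.47 to 0.62 in T47D, so that they reach changes in either direction larger than the 1.2-fold threshold, except for a decrease in PC3. TET3 passed in PC3 without normoxic replicate 2 (0.31, adjusted p = 0.0458).

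Members whose libraries did not overlap numbered 4 of 7 in A549 (48.1% of all genes tested), 4 of 7 in HCT-116 (60.3%), 5 of 7 in PC3 (51.4%) and 2 of 7 in T47D (32.5%), again near the share over all genes.

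**Figure D2:**
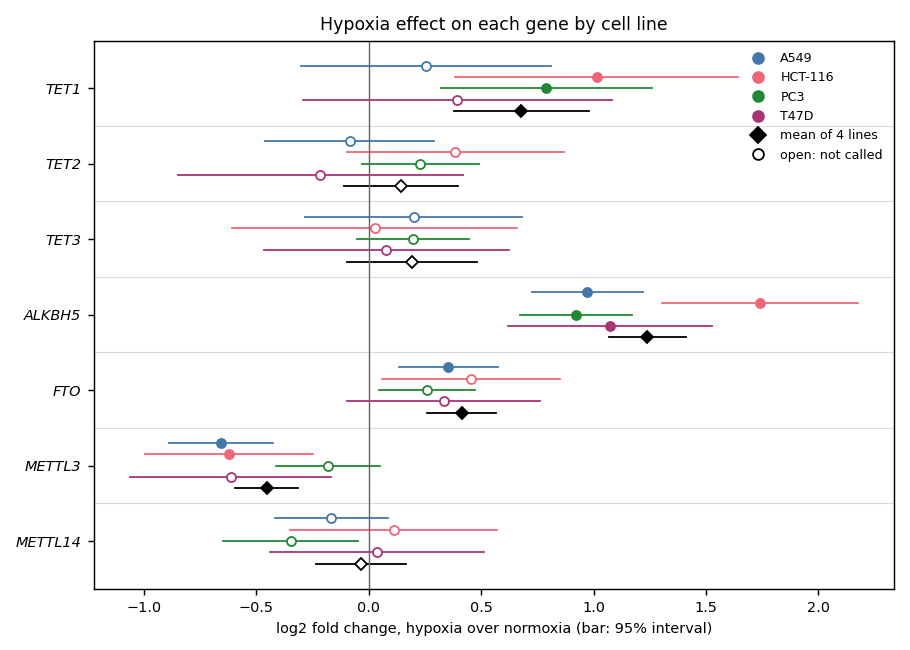
Log2 fold change of hypoxia over normoxia for each member in each line (circles) and averaged over the 4 lines (diamonds), with 95% intervals. Filled symbols passed the test in fits without a replicate block. ALKBH5 (0.92 to 1.74) and METTL3 (-0.66 to -0.18) lie on opposite sides of 0 in every line.

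A fit of all 24 libraries gave the mean effect over the 4 lines. In that fit 4 of 7 members were called, against 47.6% of all genes tested (26.1% up and 21.5% down). ALKBH5 rose by 1.24 ± 0.08 (SE) on the log2 scale (adjusted p = 2.44e-11), TET1 by 0.68 ± 0.14 (adjusted p = 0.000314) and FTO by 0.41 ± 0.07 (adjusted p = 4.23e-05). METTL3 fell by 0.45 ± 0.07 (adjusted p = 3.59e-06). The mean effect was 0.14 ± 0.12 for TET2, 0.19 ± 0.14 for TET3 and -0.03 ± 0.10 for METTL14, none of which passed (adjusted p 0.365, 0.272 and 0.881). The FTO value was 0.07 with an adjusted p of 0.514 after correction for GC content and length, under which TET3 was called down instead (-0.35, adjusted p = 0.00158).

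Whether the effect differed between lines was tested by an interaction term in the same fit. ALKBH5 alone among the members passed (adjusted p = 0.0209, against 18.3% of all genes). The effect in A549 was 0.88 ± 0.23 (SE) below that in HCT-116 on the log2 scale (difference -0.88, adjusted p = 0.0136, against 16.7% of genes). That in HCT-116 exceeded the effect in PC3 by 0.89 ± 0.23 (adjusted p = 0.0139, against 14.9%). The difference between HCT-116 and T47D was 0.71 ± 0.23 (adjusted p = 0.0533, against 9.07% of genes past the threshold). A549, PC3 and T47D differed from each other in the ALKBH5 effect by at most 0.18, none past the threshold, beside 0.758% of genes between A549 and PC3, 2.11% between A549 and T47D and 2.25% between PC3 and T47D. The ALKBH5 interaction did not pass without replicate 1 (adjusted p = 0.0987) or replicate 2 (adjusted p = 0.478) of all groups. Without replicate 3 of all groups the METTL14 interaction passed as well (adjusted p = 0.0353, and 0.393 with all libraries). For METTL3, called in A549 and HCT-116 and not in PC3, the interaction passed without hypoxic replicate 3 of T47D (adjusted p = 0.0290). It also passed with the correction for GC content and length (0.0435, and 0.0466 with the replicate block added). With all libraries and no correction the METTL3 interaction had an adjusted p of 0.157. The 3 fits in which it passed were chosen after seeing the data, and under the other 8 of 11 alternatives it did not pass. No pairwise difference in METTL3 effect passed (A549 minus PC3 -0.52, adjusted p = 0.275, and PC3 minus T47D 0.41, adjusted p = 0.340). The difference in TET1 effect between HCT-116 and A549 was likewise not past the threshold (A549 minus HCT-116 -0.88, 95% interval -1.72 to -0.04; adjusted p = 0.141).

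In normoxia the levels of the same gene were compared between lines, and of 42 combinations of member and pair of lines 18 were called. The share of all genes called was 64.9% between A549 and HCT-116, 60% between A549 and PC3, 66.6% between A549 and T47D, 65.6% between HCT-116 and PC3, 68.5% between HCT-116 and T47D and 67.8% between PC3 and T47D. ALKBH5 and METTL3 were called in 4 of 6 pairs each, FTO, METTL14 and TET2 in 3 of 6, TET1 in 1 of 6 and TET3 in 0 of 6, also by DESeq2 for TET3. Levels below are CPM per kilobase of transcript (mean ± SD, n = 3 libraries), scaled over all 24 libraries. Setting different genes beside each other rests on transcript lengths from GENCODE, whereas reads were counted per UCSC gene. Where these gene models differ, the length need not match the counted exons, and levels or ratios between genes shift with it. The extent of such differences was not tested. Comparisons of the same gene between lines do not depend on the length.

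ALKBH5 was highest in A549 (38.3 ± 4.4 CPM per kilobase) and PC3 (34.6 ± 5.4), which did not pass the test against each other (adjusted p = 0.564), followed by T47D (20.3 ± 5.2) and HCT-116 (19.3 ± 3.6), which did not either (adjusted p = 0.774). Each of the first pair was called above each of the second. Without replicate 1 or 2 of all lines PC3 against T47D did not pass (adjusted p 0.0593 and 0.0653), nor HCT-116 against PC3 without replicate 2 (0.0518). In hypoxia ALKBH5 reached 75.3 ± 3.3 in A549, 70.0 ± 2.4 in HCT-116 and 67.9 ± 4.4 in PC3, and 44.9 ± 1.7 in T47D. FTO was called higher in A549 (4.69 ± 0.27) than in HCT-116 (2.85 ± 0.52), T47D (2.54 ± 0.42) and PC3 (2.19 ± 0.16), and none of those neighbours passed against each other. HCT-116 against PC3 was nearest (adjusted p = 0.0509) and passed by DESeq2 (0.0408), with RLE scaling (0.0439) and without replicate 2 (0.0463).

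METTL3 stood at 29.6 ± 2.4 CPM per kilobase in A549 and 28.7 ± 1.3 in HCT-116, each called above T47D (18.7 ± 0.5) and PC3 (18.1 ± 1.0), with no call within either pair. Its hypoxic means were 18.9 ± 0.8 in A549, 20.2 ± 0.8 in HCT-116, 16.5 ± 1.3 in PC3 and 12.9 ± 2.8 in T47D, so that in A549 and HCT-116 they lay close to the normoxic levels of the other 2 lines. METTL14 was called higher in HCT-116 (3.75 ± 1.24) than in A549 (2.5 ± 0.02), T47D (2.28 ± 0.67) and PC3 (1.89 ± 0.30). The call against A549 did not pass without replicate 1 or 3 (adjusted p 0.0896 and 0.231), nor that against T47D without replicate 1 or 2 (0.0537 and 0.0506). With total-count scaling the call against T47D did not pass either (0.51, adjusted p = 0.0684).

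TET2 was called higher in T47D (2.65 ± 0.28 CPM per kilobase) than in HCT-116 (1.46 ± 0.38), A549 (1.28 ± 0.14) and PC3 (1.24 ± 0.11). TET1 ran from 0.389 ± 0.015 in T47D over A549 (0.312 ± 0.027) and HCT-116 (0.267 ± 0.056) to 0.206 ± 0.040 in PC3, and among its pairs the call was PC3 below T47D (adjusted p = 0.00637, and 0.0625 or 0.0566 without replicate 1 or 2). DESeq2 also called TET1 higher in A549 than in PC3 (adjusted p = 0.0286) and lower in HCT-116 than in T47D (0.0324, and 0.0253 with total-count scaling). TET3 lay between 2.06 ± 0.62 in A549 and 3.04 ± 0.43 in T47D, and without replicate 1 it was called lower in HCT-116 than in T47D (-0.87, adjusted p = 0.00473). With total-count scaling it was called lower in A549 than in T47D (-0.81, adjusted p = 0.0224). Per kilobase, TET3 was the highest and TET1 the lowest TET gene by mean in each line and oxygen level.

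**Figure D3:**
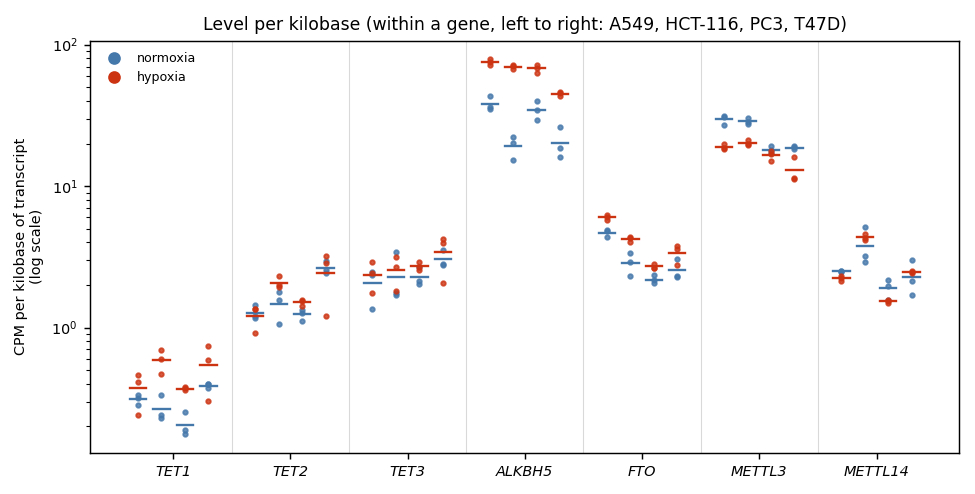
Level of each member in CPM per kilobase of transcript on a log axis, with points for libraries, bars for means of 3, blue for normoxia and red for hypoxia, and the lines A549, HCT-116, PC3 and T47D from left to right within each gene. ALKBH5 and METTL3 lie above 10 and the other 5 genes below 7 in every library.

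Ratios between members within a library need no scaling of totals between libraries. Trends of a library with transcript length and GC content can still enter them. So can the transcript lengths, which were taken from GENCODE and not from the UCSC genes that were counted. The ratios are given as a description, without correction for these trends or lengths. METTL3 exceeded METTL14 per kilobase 11.8 ± 1.0 times (SD, n = 3) in normoxic and 8.43 ± 0.40 times in hypoxic A549, and 8.07 ± 2.02 against 4.64 ± 0.26 times in HCT-116, without overlap in either line. In T47D the ratio was 8.63 ± 2.18 against 5.26 ± 1.22, and in PC3 9.75 ± 2.08 against 10.8 ± 1.0, with overlap in both. The ratio of ALKBH5 to FTO was higher in every hypoxic than in every normoxic library of its line. Its means were 8.14 and 12.5 in A549, 6.80 and 16.6 in HCT-116, 15.9 and 25.0 in PC3 and 7.91 and 13.5 in T47D.

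The summed level of the erasers ALKBH5 and FTO over that of the writers METTL3 and METTL14 was 1.35 ± 0.25 in normoxic and 3.86 ± 0.26 in hypoxic A549. It was 0.685 ± 0.127 against 3.02 ± 0.20 in HCT-116, 1.85 ± 0.35 against 3.93 ± 0.53 in PC3 and 1.08 ± 0.23 against 3.2 ± 0.55 in T47D, with no overlap in any line. ALKBH5 and METTL3 make up most of these sums. TET1 made up 6.82% ± 0.79 of the TET sum in normoxic and 11.2% ± 0.9 in hypoxic HCT-116, 5.61% ± 1.55 against 8.08% ± 0.22 in PC3 and 6.45% ± 0.69 against 8.48% ± 0.57 in T47D, without overlap, and 8.82% ± 2.18 against 9.31% ± 0.86 in A549, with overlap. In T47D this share, unlike the TET1 level, did not set hypoxic replicate 3 (8.45%) apart from replicates 1 (7.93%) and 2 (9.06%).

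**Figure D4:**
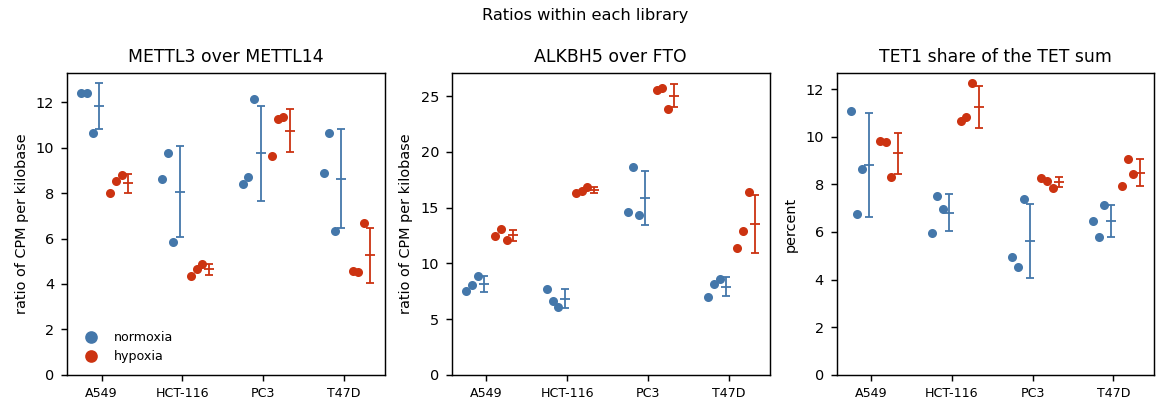
Ratio of METTL3 to METTL14, ratio of ALKBH5 to FTO (both from CPM per kilobase) and TET1 as a percent of the TET sum in each library, blue for normoxia and red for hypoxia, with mean ± SD of 3 beside the points. ALKBH5 over FTO is separate in each line, whereas METTL3 over METTL14 overlaps in PC3 and T47D.

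The effect of transcript length bears on FTO and the TET genes. Transcripts of at least 9000 bases, which include these 4 members, had a median log2 fold change of 0.23 in A549, 0.37 in HCT-116, 0.23 in PC3 and 0.11 in T47D, against -0.01, -0.03, -0.01 and -0.01 over all genes tested. Of the long transcripts, 31.0% were called up in A549, 35.1% in HCT-116, 34.2% in PC3 and 5.54% in T47D, beside 17.6%, 23.3%, 16.6% and 6.55% of all genes. FTO differed from the median of long transcripts by little in A549 (0.35), HCT-116 (0.46) and PC3 (0.26) and lay above it in T47D (0.33), and TET1 in HCT-116 (1.01) and PC3 (0.79) above it.

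When each library was corrected for trends with GC content and transcript length, the log2 fold change of FTO was 0.02 in A549 (adjusted p = 0.896), -0.05 in HCT-116, -0.06 in PC3 and 0.18 in T47D. TET3, at 53.2% GC the most GC-rich of the long members, was called down in HCT-116 (-0.75, adjusted p = 0.0130) and PC3 (-0.27, adjusted p = 0.0417). TET1 remained called up in HCT-116 (0.85, adjusted p = 0.0211) and not in PC3 (0.64, adjusted p = 0.0539). With the replicate block added to the correction, TET1 passed in PC3 (0.66, adjusted p = 0.0441). ALKBH5 kept its call in all lines, at 0.79 in A549, 1.35 in HCT-116, 0.73 in PC3 and 0.85 in T47D. METTL3 was called down in A549 (-0.59), HCT-116 (-0.50) and T47D (-0.62). Whether length and GC trends are technical or part of the response to hypoxia was not tested.

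**Figure D5:**
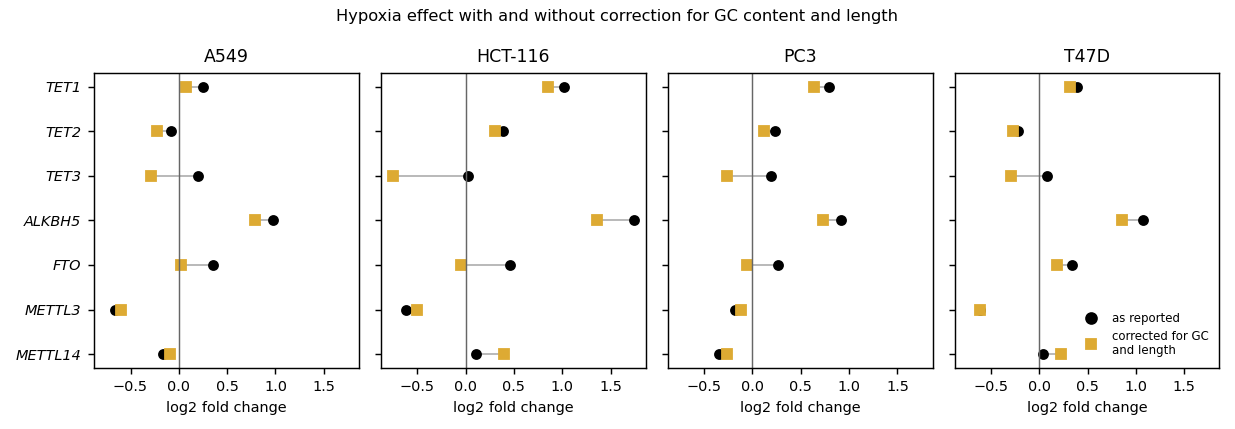
Log2 fold change of hypoxia over normoxia for each member and line as reported (black circles) and after correction for GC content and transcript length (yellow squares). FTO moves to near 0 in A549, HCT-116 and PC3, TET3 moves below 0 in every line, and ALKBH5 stays at 0.73 or above.

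The other components of the pathways were read from lists and described by counts. Beside these stand the shares of all genes tested, 17.6% up and 17.8% down in A549, 23.3% and 27% in HCT-116, 16.6% and 15.7% in PC3 and 6.55% and 6.69% in T47D. Of the 9 m6A writer genes, which include METTL3, METTL14 and METTL16, a separate methyltransferase outside the complex, 2 were called up and 2 down in A549 and in HCT-116, 2 up and 1 down in PC3, and none in T47D in either direction, where 1 gene passed up and 1 down at an unadjusted p below 0.05 and DESeq2 called 1 up. The median log2 fold change was 0.07, 0.21, -0.02 and 0.10 in the order A549, HCT-116, PC3 and T47D. RBM15B, which helps recruit the complex to RNA, rose by 0.40 in A549, 0.96 in HCT-116 and 0.47 in PC3 (0.27 in T47D, adjusted p = 0.380). WTAP, the regulatory subunit that binds METTL3 and METTL14, fell by 0.37, 1.02 and 0.39 in the same lines (-0.28 in T47D, adjusted p = 0.341). The m6A writer list thus held calls in both directions.

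Of 11 m6A readers, 1 was up and 2 down in A549, 3 up and 2 down in HCT-116, 1 up and 2 down in PC3 (10 tested), and 0 were called in T47D (1 down at an unadjusted p below 0.05, 0 by DESeq2). HNRNPC, a nuclear RNA-binding protein whose access to RNA depends on m6A, fell by 0.33 in A549, 0.66 in HCT-116 and 0.33 in PC3. In T47D it was not called (-0.05, adjusted p = 0.920), and in A549 its adjusted p was 0.0479. None of the 7 other ALKBH family genes was called up, by edgeR or DESeq2, nor did any pass upward at an unadjusted p below 0.05. Of these, 2 were down in A549, 3 in HCT-116, 2 in PC3 and 0 in T47D (0 also at an unadjusted p below 0.05 and by DESeq2), with medians of -0.29, -0.26, -0.33 and -0.13, beside the 17.8%, 27%, 15.7% and 6.69% of all genes called down.

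Around the TET enzymes, TDG, the glycosylase that excises oxidised forms of 5-methylcytosine, fell in every line, by 0.71 ± 0.12 (SE) in A549, 1.85 ± 0.25 in HCT-116, 1.07 ± 0.14 in PC3 and 0.74 ± 0.20 in T47D (adjusted p 0.00109, 0.000152, 0.00129 and 0.0294). POLB, the repair polymerase of the same pathway, fell by 0.66 in A549, 1.85 in HCT-116 and 1.34 in T47D (-0.31 in PC3, adjusted p = 0.245). Of the 11 TET partners and base excision genes, 5 were down and 0 up in A549, 5 down and 1 up in HCT-116, 2 down and 1 up in PC3 (10 tested) and 2 down and 0 up in T47D. Among 8 methyl-CpG readers, 1 was up in A549, 4 in HCT-116, 4 in PC3 and 1 in T47D, and 1 was down in each line. The latter was MBD4, which carries its own glycosylase domain (-0.82 in A549, -1.18 in HCT-116, -0.37 in PC3 and -0.63 in T47D). ZBTB4 rose in A549 (0.71), HCT-116 (0.91) and PC3 (0.71), and MBD3, a subunit of the NuRD complex, in HCT-116 (1.05), PC3 (0.62) and T47D (0.81). ZBTB4 in T47D (0.59, adjusted p = 0.0977) and MBD3 in A549 (0.34, adjusted p = 0.0546) were not called. Of 6 genes that write or maintain DNA methylation, 5 were tested in each line, and 2 were called up in HCT-116 and 0 in the other 3 lines, where 1 gene in PC3 passed at an unadjusted p below 0.05 and 0 by DESeq2.

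Enzymes that set the 2-oxoglutarate, succinate and fumarate pools, the co-substrate and inhibitors of the dioxygenases, numbered 15. In A549 1 was up and 6 were down, in HCT-116 4 and 6, in PC3 3 and 1, and in T47D 0 and 1. IDH2, the mitochondrial NADP-dependent isocitrate dehydrogenase, rose by 2.19 ± 0.12 (SE) in A549, 1.64 ± 0.27 in HCT-116 and 0.35 ± 0.11 in PC3. SDHD, a membrane anchor of succinate dehydrogenase, fell by 0.50 in A549, 1.5 in HCT-116 and 0.52 in PC3. IDH3A, the catalytic subunit of the NAD-dependent enzyme, fell by 0.52 in A549, 0.53 in HCT-116 and 0.97 in T47D. Not called were IDH2 (0.54, adjusted p = 0.170) and SDHD (-0.52, adjusted p = 0.145) in T47D, and IDH3A in PC3 (-0.21, adjusted p = 0.0714).

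Over the 24 libraries, which share line and oxygen effects, the gene whose log2 level followed ALKBH5 most closely was ESYT2 (Pearson r = 0.97), then RAB11B and DENND1A (both 0.95). FTO was followed most closely by ADAM10 (0.96), METTL3 by DNAJA2 (0.90), METTL14 by INTS2 (0.94), TET1 by ARID3A (0.89), TET2 by GAPVD1 (0.91) and TET3 by MLL2 (0.90). Between members the highest values were 0.71 for TET2 with TET3, 0.71 for TET1 with TET2 and 0.59 for TET1 with TET3, followed by 0.58 for ALKBH5 with FTO. METTL3 had its lowest values with TET3 (-0.59) and TET2 (-0.44). These correlations are descriptions across libraries of unequal depth and carry no test. They were not corrected for the trends of libraries with transcript length and GC content, and the 3 TET transcripts are all long. The part of these trends in the correlations was not tested.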

How the data were processed

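PolyA RNA was sequenced with a directional library kit. Per the study's methods and the submitters' processing notes, the authors trimmed reads with Trim Galore (0.3.3), aligned them with HISAT2 (2.05) to GRCh37, removed non-unique fragments with Picard (2.0.1) and counted reads per UCSC gene with HTSeq (0.5.4p3) in intersection-strict mode, so that the deposited values are raw read counts per gene symbol. The authors tested with DESeq2. The strand setting of HTSeq is not given in the sources used here.

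Counts were taken as deposited, and every row named a gene. No libraries were identical, and the least different replicate pair had a chi-square of 11.5 per gene. The most different pair, in normoxic HCT-116, had 309. Within each line, edgeR (4.0.16, R 4.3.3) was run with filterByExpr and TMM scaling. SE is the log2 fold change over the root of its F statistic. A fit of all 24 libraries gave the interaction and mean effect, and one of the 12 normoxic libraries the levels between lines. All 7 members were tested in each fit, 3 counts corresponded to 0.0477 to 0.132 CPM, and CPM used TMM-scaled totals. Samples were grouped by the labels. Scripts were tested on simulated data.

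The alternatives were RLE and total-count scaling, no filter, a replicate block, correction for GC content and length, DESeq2 (1.42.0), an adjusted p below 0.01, each library left out, one fit of all libraries and, chosen after seeing the data, 24-library fits with the correction and one without hypoxic replicate 3 of T47D. The correction used a spline with 5 degrees of freedom on genes with a mean of at least 50 counts, and 93.7% of symbols had a length and GC content. The fits within a line held oxygen state only, in T47D too, and the replicate block was an alternative in every line. Only in T47D did each correlation of the deviations of same-numbered libraries exceed 0.1 (0.15 to 0.325). The correlations ran from 0.0826 to 0.207 in A549, 0.0706 to 0.289 in HCT-116 and 0.0799 to 0.083 in PC3, all positive.

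The members and gene lists were chosen with earlier results of these data known. Every member is named. From each list up to 4 genes called in the same direction in at least 3 lines are named, by mean log2 fold change, and for pattern likeness the genes with the highest Pearson r over 24 libraries. Protein sequences were not used here.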

Additional observations from a re-analysis of the deposited data

Results flagged for a closer look

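The hypoxia effect on ALKBH5 was singled out because it differed between cell lines by a test of the difference itself (edgeR interaction, adjusted p = 0.0209), a test that 18.3% of all genes passed. It did not pass without replicate 1 (adjusted p = 0.0987) or replicate 2 (0.478) of all groups. The effect in A549 minus that in HCT-116 was -0.88 on the log2 scale, and the effect in HCT-116 minus that in PC3 was 0.89. The normoxic ALKBH5 level was lower in HCT-116 than in A549 and PC3 (adjusted p 0.000456 and 0.00155), and these normoxic libraries enter both values. The part of the normoxic level in the difference was not tested.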

How the results depend on the processing

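The increase of ALKBH5 passed in A549, HCT-116 and PC3 under all 15 alternatives run in each line, and METTL3 kept its call in A549 under all 15. The count of members called (3, 3, 2 and 1 in A549, HCT-116, PC3 and T47D) ranged from 2 to 3 in A549, 2 to 5 in HCT-116, 1 to 3 in PC3 and 0 to 2 in T47D when 1 library was left out. Genes called among all tested (4928, 6846, 4346 and 1864) ranged from 3109 to 5331, 5339 to 6819, 2183 to 5361 and 199 to 3305 in the same way. At an adjusted p below 0.01 they numbered 2734 in A549, 1549 in PC3 (where 1 member passed) and 416 in T47D. In one fit of all 24 libraries they numbered 2609 in A549, 1292 in PC3 (1 member) and 3830 in T47D (3 members, ALKBH5, FTO and METTL3). T47D gave 2 members with total-count scaling, with the replicate block and with the GC content and length correction, with or without the block. The block changed no other member's call except FTO in HCT-116 (0.47, adjusted p = 0.0363), where not every same-number correlation exceeded 0.1. With the correction and the block together, 3565 genes were called in T47D and 5 members in HCT-116, where METTL14 was then called up (0.45). TET3 reversed to a called decrease with the correction in HCT-116 (-0.75 with and without the block), in PC3 (-0.27 in both) and in the mean over lines (-0.35, and -0.34 with the block). The members with an interaction (1) numbered 0 to 2 with a replicate number left out and 2 with the correction, with the correction and block, and without hypoxic replicate 3 of T47D. Causes were not tested. Total-count scaling moved the median of all genes to -0.13 in A549 and -0.12 in T47D, with 33.9% and 32.1% of calls up in place of 49.8% and 49.5%. TET3 and METTL14 in T47D then changed sign, uncalled (-0.01 and -0.06), and FTO in A549 was then not called (0.24, adjusted p = 0.0666). TET1 had the fewest counts per library.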
